A study of Mus musculus with 6 samples.

Results

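Gria3, Igsf9b, Gapdhs, Ptp4a3, Fbxw9, Ddias and Abhd11os were examined in purified mouse epidermal cells, 7 genes of 38924 in the deposited count table. They were chosen as genes low in K14-Cre- cells and higher in K14-Cre+ cells that stand outside the usual lists of p53 target genes. The comparison between those groups and the K14-Cre- levels are therefore given for them as a description, with no test. The word low does not hold for all of them: K14-Cre- libraries had 731 to 761 counts of Fbxw9, against 4 to 6 counts of Abhd11os. The 6 libraries came from epidermal cells sorted for CD49f, the integrin alpha 6 chain that basal keratinocytes carry, and every sample was Rnaseh2b flox/flox. In the 3 K14-Cre+ samples the keratin 14 promoter, which is active in basal keratinocytes, drives the Cre recombinase, and the 3 K14-Cre- samples lack it. All samples had the floxed alleles, so an effect of Cre itself and an effect of the loss of Rnaseh2b cannot be told apart here. The labels give no age or strain and do not say whether replicates were separate animals, so p-values cover the spread between these samples only, and that spread may in part be technical.

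The protein made from Rnaseh2b is part of RNase H2, which cuts DNA at built-in ribonucleotides and so starts ribonucleotide excision repair. Cells that lack it accumulate DNA damage and activate p53 signalling. The genes described here have varied known roles: Gria3 and Igsf9b act at synapses of neurons, Gapdhs is a glycolytic enzyme of sperm, Ptp4a3 is a phosphatase studied in tumour spread, Fbxw9 belongs to the ubiquitin system, Ddias is a DNA damage response gene, and Abhd11os is a long non-coding RNA.

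The labels hold no replicate numbers, so replicates were numbered within each group in the order in which the samples are listed. The targeted gene was low in every library labelled K14-Cre+. Rnaseh2b had 172, 90 and 69 counts in K14-Cre+ libraries, against 543, 504 and 570 counts in K14-Cre- libraries. Library totals were 31718094, 23186065 and 23807449 counts in K14-Cre+ and 24340191, 22948779 and 25362538 counts in K14-Cre- cells. A count of 3, used as the floor of detection, corresponded to between 0.0922 and 0.143 CPM, the counts scaled to library totals of equal size, which covers counting error only. Read from Xist and Y-linked genes, K14-Cre+ replicates 1 and 2 were male and replicate 3 female, whereas K14-Cre- replicate 2 was male and replicates 1 and 3 female. Of 15525 tested genes, 63 were higher in K14-Cre+ cells, or 0.406%, and 17 were lower, or 0.11% (edgeR quasi-likelihood, Benjamini-Hochberg adjusted p under 0.05, used for all edgeR calls below). An unadjusted p under 0.05 was found for 18.8% of the tested genes, and DESeq2 called 3.6% higher and 1.86% lower. The edgeR counts depend on single libraries: without K14-Cre+ replicate 1, 2 or 3 they were 20, 7 and 288 higher. Without K14-Cre- replicate 1 or 2 edgeR called no gene, although 1844 and 2085 genes had an unadjusted p under 0.05, and without replicate 3 it called 1 gene higher.

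All 7 genes passed the filter on low counts, all were among the 63 genes called higher, and none overlapped between the groups. The choice of the genes used this contrast, so nothing is read from these counts. Groups without overlap, with K14-Cre+ higher, were found for 14.1% of the tested genes. Gapdhs and Abhd11os reached the filter's minimum in none of the K14-Cre- libraries. They were tested only because of their level in K14-Cre+ cells and had to differ. Gria3 reached it in 1 K14-Cre- library. It too was tested only because of its level in K14-Cre+ cells, which favoured a difference without fixing it. Igsf9b, Ptp4a3, Fbxw9 and Ddias reached it in all 3 libraries of both groups. In bulk samples, fewer cells of a type and less RNA per cell cannot be told apart, and likewise more cells and more RNA.

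Gria3 encodes GluA3, a subunit of the AMPA receptor, the glutamate-gated channel of fast excitatory synapses. It spans chrX:41400854-41678601 on the plus strand of mm10, with 9859 bases of exon in the count table. It had 287, 198 and 69 counts in K14-Cre+ libraries, against 7, 4 and 21 counts in K14-Cre- libraries. K14-Cre+ replicate 3 was far below the other K14-Cre+ libraries and K14-Cre- replicate 3 above the other K14-Cre- libraries, yet the groups did not overlap. Gria3 averaged 6.95 ± 3.18 CPM in K14-Cre+ and 0.415 ± 0.338 CPM in K14-Cre- cells (SD, n = 3 each), a log2 fold change of 4.04 (SE 0.60) and the third largest of all tested genes. Without K14-Cre- replicate 3 the log2 fold change was 4.94. K14-Cre- replicate 2 lay nearest the floor, at 0.164 CPM.

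Igsf9b encodes an immunoglobulin superfamily adhesion protein found at inhibitory synapses of rodent neurons. It lies at chr9:27299228-27334763 on the plus strand, with 4751 exon bases. It had 140, 105 and 69 counts in K14-Cre+ libraries, against 18, 25 and 18 counts in K14-Cre- libraries. The lowest K14-Cre+ library was 3.19 times the highest K14-Cre- library on the CPM scale. Igsf9b averaged 4.08 ± 0.712 CPM in K14-Cre+ and 0.811 ± 0.188 CPM in K14-Cre- cells (SD, n = 3 each), with a log2 fold change of 2.33 (SE 0.25).

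Gapdhs encodes the glyceraldehyde-3-phosphate dehydrogenase of sperm, which mouse sperm need in order to swim. It lies at chr7:30729775-30743681 on the minus strand, with 1610 exon bases. It had 99, 126 and 66 counts in K14-Cre+ libraries, against 10, 8 and 10 counts in K14-Cre- libraries. K14-Cre+ replicate 2 stood above replicates 1 and 3, which were alike at 3.04 and 3.14 CPM, and the K14-Cre- libraries lay close together. Gapdhs averaged 3.92 ± 1.44 CPM in K14-Cre+ and 0.370 ± 0.0374 CPM in K14-Cre- cells (SD, n = 3 each), with a log2 fold change of 3.38 (SE 0.33).

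Ptp4a3 encodes PRL-3, a small phosphatase anchored to membranes that binds the CNNM magnesium transport proteins. It lies at chr15:73723145-73758766 on the plus strand, with 4619 exon bases. It had 2004, 1722 and 906 counts in K14-Cre+ libraries, against 365, 339 and 376 counts in K14-Cre- libraries. The K14-Cre+ libraries were spread widely, with replicate 3 lowest at 43.1 CPM and replicate 2 highest at 76.2 CPM, while the K14-Cre- libraries ran only from 13.9 to 14.6 CPM. Ptp4a3 averaged 60.3 ± 16.6 CPM in K14-Cre+ and 14.3 ± 0.358 CPM in K14-Cre- cells (SD, n = 3 each), with a log2 fold change of 2.08 (SE 0.20).

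Fbxw9 encodes an F-box protein with WD40 repeats, a family that brings substrates to SCF ubiquitin ligases. It lies at chr8:85060055-85067124 on the plus strand, with 3383 exon bases. It had 2099, 1655 and 1271 counts in K14-Cre+ libraries, against 761, 731 and 746 counts in K14-Cre- libraries. It was the steadiest of the 7 genes among K14-Cre+ libraries, with a coefficient of variation of 9.94% in K14-Cre+ and 3.76% in K14-Cre- cells. Fbxw9 averaged 66.0 ± 6.56 CPM in K14-Cre+ and 29.6 ± 1.12 CPM in K14-Cre- cells (SD, n = 3 each), with a log2 fold change of 1.16 (SE 0.09).

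Ddias, the DNA damage-induced apoptosis suppressor also known as Noxin, lies at chr7:92857529-92874213 on the minus strand, with 3349 exon bases. It had 564, 432 and 277 counts in K14-Cre+ libraries, against 188, 197 and 225 counts in K14-Cre- libraries. The groups came closest here, with the lowest K14-Cre+ library at 1.54 times the highest K14-Cre- library in CPM. Ddias averaged 16.5 ± 3.06 CPM in K14-Cre+ and 8.06 ± 0.512 CPM in K14-Cre- cells (SD, n = 3 each). Its log2 fold change of 1.04 (SE 0.15) was the smallest of the 7, number 40 of the 63 genes called higher.

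Abhd11os is a long non-coding RNA transcribed from the strand opposite Abhd11, a mitochondrial hydrolase gene. It lies at chr5:135012114-135013253 on the minus strand, with 701 exon bases. It had 72, 65 and 22 counts in K14-Cre+ libraries, against 6, 6 and 4 counts in K14-Cre- libraries. The K14-Cre- values stood just above the floor, and K14-Cre+ replicate 3 was well below the other K14-Cre+ libraries without reaching the K14-Cre- range. Abhd11os averaged 2.04 ± 0.927 CPM in K14-Cre+ and 0.213 ± 0.0528 CPM in K14-Cre- cells (SD, n = 3 each), with a log2 fold change of 3.24 (SE 0.46).

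**Figure D1:**
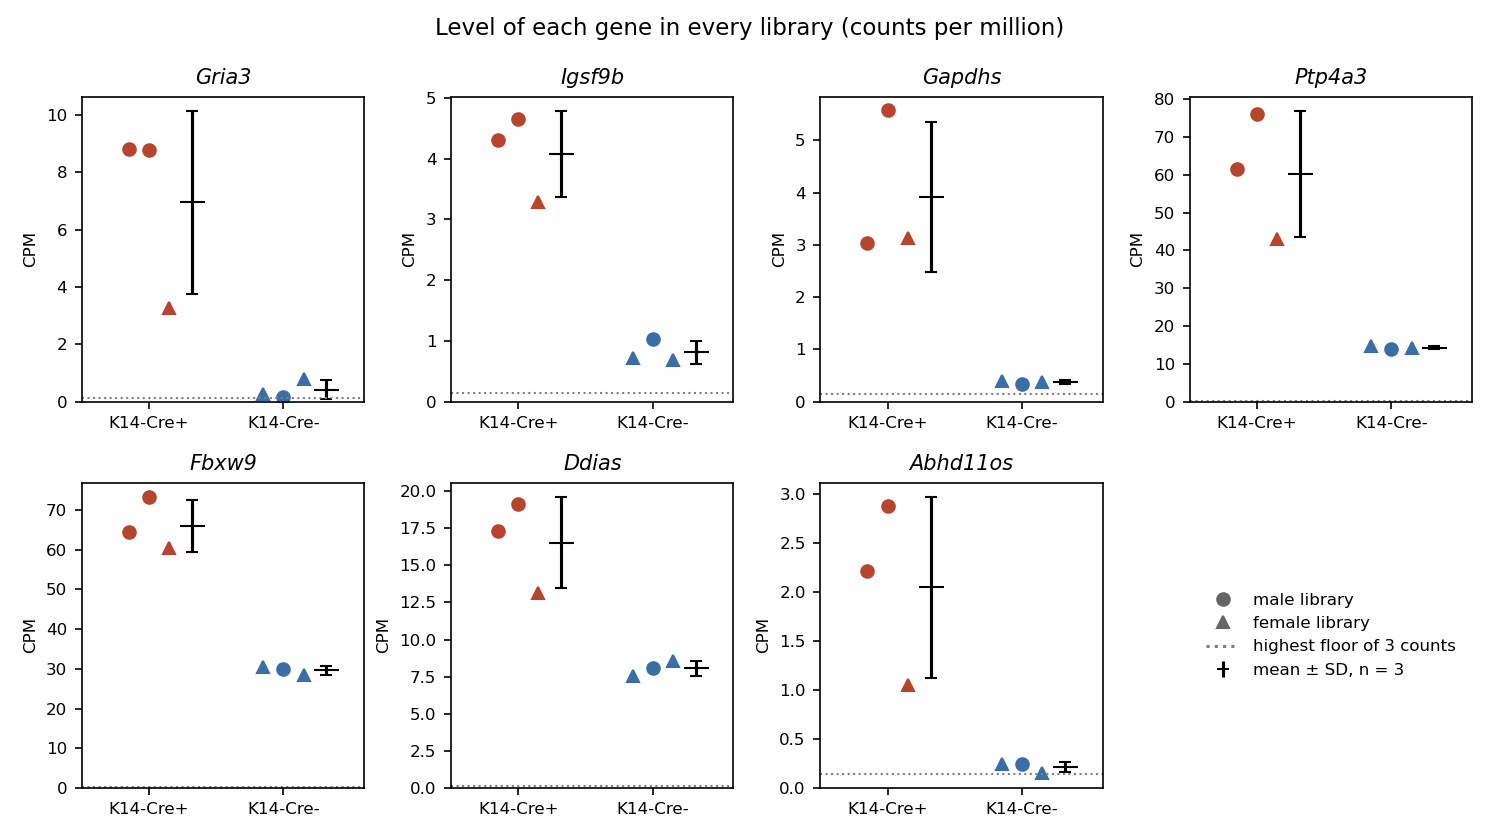
CPM of each of the 7 genes in every library, with its own linear axis for each gene, K14-Cre+ at left and K14-Cre- at right. Circles are male and triangles female libraries, the bar is the mean ± SD of 3 libraries and the dotted line the highest floor of 3 counts (0.143 CPM); in every panel all K14-Cre+ points lie above all K14-Cre- points, and replicate 3 of K14-Cre+ is lowest for all but Gapdhs.

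K14-Cre+ replicate 3 was the lowest of its group for 6 of the 7 genes, Gapdhs being the exception. The same library was lowest of its group for 41.4% of all tested genes and for 38 of the 63 genes called higher. It was also the only female K14-Cre+ library, so sex and this library cannot be told apart. Between male libraries alone, 2 K14-Cre+ against 1 K14-Cre-, Gria3 was 53.5-fold higher, Gapdhs 13.1-fold, Abhd11os 10.3-fold, Ptp4a3 4.95-fold, Igsf9b 4.36-fold, Fbxw9 2.29-fold and Ddias 2.25-fold. Between female libraries alone, 1 K14-Cre+ against 2 K14-Cre-, Gria3 was 6.07-fold higher, Gapdhs 8.02-fold, Abhd11os 5.32-fold, Ptp4a3 2.97-fold, Igsf9b 4.66-fold, Fbxw9 2.05-fold and Ddias 1.63-fold. Since the groups of these genes do not overlap, the direction within each sex was fixed by their choice, and only the sizes are given, with no replicate check on the side that has 1 library. The male K14-Cre- library held only 4 counts of Gria3, 8 of Gapdhs and 6 of Abhd11os, so the male folds of these genes are imprecise. The difference between the sexes was not tested.

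Levels were compared between genes as RPKM, which is CPM per kilobase of exon. Gria3 averaged 0.705 RPKM in K14-Cre+ and 0.0421 RPKM in K14-Cre- cells, Igsf9b 0.858 and 0.171, Gapdhs 2.43 and 0.230, and Abhd11os 2.92 and 0.304. These 4 genes were below 1 RPKM in K14-Cre- cells, a low level there being part of their choice, and in K14-Cre+ cells they averaged less than the median level of all tested genes, 5.21 RPKM. Ddias averaged 4.94 RPKM in K14-Cre+ and 2.41 RPKM in K14-Cre- cells, Ptp4a3 13.1 and 3.09, and Fbxw9 19.5 and 8.76. In K14-Cre- cells Ddias stood at the percentile 33.6, Ptp4a3 at 38.6 and Fbxw9 at 63.1 of RPKM among tested genes. Ptp4a3, Fbxw9 and Ddias were thus measured well above the floor without Cre, and neither ectopic nor neuronal describes them.

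Ordered by RPKM in K14-Cre+ cells, Gria3 and Igsf9b were lowest, followed by Gapdhs, Abhd11os and Ddias, then Ptp4a3 and Fbxw9. The ranges of Gria3 and Igsf9b overlapped, as did those of Abhd11os with Gapdhs and with Ddias, whereas Ptp4a3 and Fbxw9 each stood clear of their neighbours. In K14-Cre- cells the order was Gria3, Igsf9b, Gapdhs, Abhd11os, Ddias, Ptp4a3 and Fbxw9. There the neighbours from Igsf9b to Abhd11os overlapped and the others did not.

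**Figure D2:**
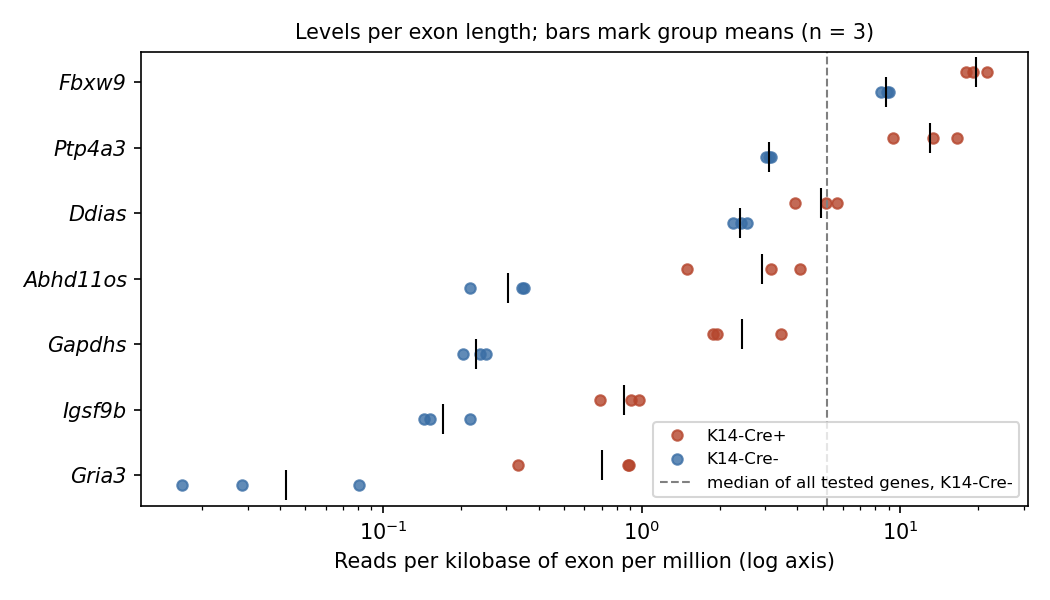
RPKM of the 7 genes in every library on a log axis, K14-Cre+ above K14-Cre- for each gene, with a bar at the group mean. The dashed line is the median of all tested genes in K14-Cre- cells (5.20 RPKM); by group mean, only Fbxw9 lies to its right in both groups, and Ptp4a3 does so in K14-Cre+ cells.

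Promoter sequence from RefSeq (GRCm38.p6) was matched for 4 of the 7 genes, in 5 windows running from 250 bases before to 50 bases after a transcript start. The 100 bases nearest the start that carry no annotated exon are printed for these genes, 5′ to 3′ on the gene's strand, because the genes were high in the same libraries and their starts can be set side by side. For Fbxw9 the bases are chr8:85059955-85060054, plus strand, for Ddias chr7:92874248-92874347 and for Abhd11os chr5:135013254-135013353, both minus strand. For Gapdhs they are chr7:30743682-30743781 before the outer start and chr7:30739408-30739507 before an inner start, minus strand. Capitals mark motif matches in Fbxw9, Ddias and Abhd11os, and the stretch shared by both windows in Gapdhs.
Fbxw9: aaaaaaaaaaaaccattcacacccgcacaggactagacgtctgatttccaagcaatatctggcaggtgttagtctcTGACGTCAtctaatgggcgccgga
Ddias: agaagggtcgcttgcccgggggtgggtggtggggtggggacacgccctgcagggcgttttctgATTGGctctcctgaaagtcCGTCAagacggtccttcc
Abhd11os: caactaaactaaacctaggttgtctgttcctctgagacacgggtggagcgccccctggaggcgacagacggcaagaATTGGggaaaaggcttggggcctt
Gapdhs outer start: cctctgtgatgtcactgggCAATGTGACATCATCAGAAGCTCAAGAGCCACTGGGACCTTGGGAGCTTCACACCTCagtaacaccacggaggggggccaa
Gapdhs inner start: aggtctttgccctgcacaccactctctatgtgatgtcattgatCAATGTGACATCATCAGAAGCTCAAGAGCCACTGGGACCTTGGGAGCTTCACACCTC

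The motifs were searched on both strands of the full windows. The cAMP response element TGACGTCA was found in 1 of the 5 windows, that of Fbxw9 at position -88 from the start, and in 1.79% of 32851 promoter windows. Its shorter core TGACG, which the full element contains, was in 3 of the 5 windows and in 20.8% of all windows. CCAAT was in 2 of the 5, those of Ddias and Abhd11os, and in 37.4% of all, and the GC box GGGCGG in 2 of the 5 and in 35.7% of all. The AP-1 motif TGANTCA was in none of the 5 and in 7.81% of all, and the p53 decamer in none of the 5 and in 8.36% of all. Both Gapdhs windows contain the same 57 bases, at positions -81 to -25 before the outer start and -57 to -1 before the inner start. These matches describe the letters of the windows and no binding was measured.

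The glutamate receptor genes were read against shares of 0.406% called higher and 0.11% called lower among all tested genes, at which a list of this size would seldom hold a call. Of 33 genes for glutamate receptor subunits and their partners, 18 were tested and edgeR called none in either direction. An unadjusted p under 0.05 was found for 4 of them, beside 18.8% of all tested genes, and DESeq2 called 1 higher. The same holds for the lists that follow: a count of 0 is near the share over all genes and is no result about a list. The median log2 fold change of the list was -0.11, beside -0.0048 for all tested genes. Gria1, another AMPA receptor subunit, averaged 0.869 ± 0.379 CPM in K14-Cre+ and 1.19 ± 0.223 CPM in K14-Cre- cells (SD, n = 3 each). Gria2, the subunit that makes AMPA receptors impermeable to calcium, averaged 2.79 ± 0.344 CPM in K14-Cre+ and 2.49 ± 0.430 CPM in K14-Cre- cells (SD, n = 3 each). Gria4 did not pass the filter, with 44, 7 and 5 counts in K14-Cre+ and 7, 8 and 11 counts in K14-Cre- libraries. Grip1, a scaffold that binds AMPA receptors, had a log2 fold change of 0.36 and an edgeR adjusted p of 0.113. Grip1 was the gene that DESeq2 called. Grik4, a kainate receptor subunit, had a log2 fold change of -0.95 and an edgeR adjusted p of 0.137. Pick1, another protein that binds AMPA receptors, averaged 34.3 ± 3.30 CPM in K14-Cre+ and 33.7 ± 2.70 CPM in K14-Cre- cells (SD, n = 3 each).

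Of 21 neuronal markers, 11 were tested and edgeR called none in either direction, while DESeq2 called 1 higher. Of the 11, 4 had an unadjusted p under 0.05, beside 18.8% of all tested genes, and the median log2 fold change was -0.24. Map2, a microtubule protein of dendrites, was the gene called by DESeq2, with a log2 fold change of 0.81 and an edgeR adjusted p of 0.107. It averaged 166 ± 43.3 CPM in K14-Cre+ and 94.6 ± 9.68 CPM in K14-Cre- cells (SD, n = 3 each). The list's summed level ran from 179 to 258 CPM in K14-Cre+ and from 130 to 144 CPM in K14-Cre- cells, and Map2 made up most of it. Tubb3 had a log2 fold change of 0.68 and an edgeR adjusted p of 0.196. Of the 11 tested genes, 5 had a positive log2 fold change. Rbfox3, the nuclear marker of neurons known as NeuN, had 5, 2 and 0 counts in K14-Cre+ libraries, against 17, 28 and 11 counts in K14-Cre- libraries. Its groups did not overlap, K14-Cre+ being lower, as for 13.8% of all tested genes, and its edgeR adjusted p was 0.118.

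Of 18 genes of synaptic adhesion, 12 were tested, none was called by edgeR in either direction, 2 had an unadjusted p under 0.05 and 1 was called lower by DESeq2. The median log2 fold change was -0.0021. Igsf9, the closest relative of Igsf9b, averaged 27.1 RPKM in K14-Cre+ and 35.1 RPKM in K14-Cre- cells, far above Igsf9b in both groups. Igsf9 had 5683, 4330 and 3590 counts in K14-Cre+ libraries, against 5732, 5562 and 6274 counts in K14-Cre- libraries. It averaged 179 ± 11.2 CPM in K14-Cre+ and 232 ± 5.59 CPM in K14-Cre- cells (SD, n = 3 each), and its log2 fold change of -0.38 had an edgeR adjusted p of 0.0889. Igsf9 was the gene that DESeq2 called lower. Lrfn4, an adhesion protein of excitatory synapses, had a log2 fold change of -0.20 and an edgeR adjusted p of 0.236.

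Most other genes of sperm were at or near 0. Of 20 genes of sperm and germ cells, 19 did not pass the filter, and 9 of these had no count in any library, among them the testis-specific glycolytic enzymes Pgk2 and Ldhc. Akap4, a protein of the sperm tail sheath, was the gene that was tested, and averaged 1.47 ± 0.123 CPM in K14-Cre+ and 1.43 ± 0.255 CPM in K14-Cre- cells (SD, n = 3 each). None of the 16 glycolysis genes, all tested, was called by edgeR or DESeq2 or had an unadjusted p under 0.05. Their median log2 fold change was 0.07. Pkm, which makes pyruvate in the last step of glycolysis, averaged 494 ± 37.0 CPM in K14-Cre+ and 495 ± 71.6 CPM in K14-Cre- cells (SD, n = 3 each). Reads assigned to Gapdh itself were few, with 104, 52 and 41 counts in K14-Cre+ and 60, 55 and 42 counts in K14-Cre- libraries, and 25.1% of its 50-base words occur in transcripts of other genes. None of the 50-base words of Gapdhs was shared with Gapdh.

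The relatives and partners of Ptp4a3 were examined in the same way. Of 15 genes for PRL phosphatases and magnesium transport, 14 were tested, none was called by edgeR or DESeq2 in either direction, 1 had an unadjusted p under 0.05 and the median log2 fold change was 0.03. Ptp4a1, or PRL-1, averaged 9.81 ± 0.309 CPM in K14-Cre+ and 9.71 ± 0.129 CPM in K14-Cre- cells (SD, n = 3 each), with 70.0% of its 50-base words shared with other genes. Ptp4a2, or PRL-2, had 37.3 RPKM in K14-Cre+ and 35.2 RPKM in K14-Cre- cells, above Ptp4a3 in both groups, and averaged 163 ± 4.58 CPM in K14-Cre+ and 154 ± 5.00 CPM in K14-Cre- cells (SD, n = 3 each). Mrs2, the mitochondrial magnesium channel, was the gene with an unadjusted p under 0.05 and had a log2 fold change of 0.25.

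All 18 ubiquitin ligase genes listed with Fbxw9 were tested, none was called by edgeR or DESeq2 in either direction, 2 had an unadjusted p under 0.05 and the median log2 fold change was 0.07. Fbxw8 and Fbxw11, F-box proteins of the same class, differed between the groups by 0.12 (SE 0.06) and 0.09 (SE 0.07) in log2 fold change. Fbxw7, which directs MYC and cyclin E to degradation, had 0.24 (SE 0.08). Skp1a, Cul1 and Rbx1 form the core of these ligases, and Cul1 averaged 102 ± 2.56 CPM in K14-Cre+ and 102 ± 1.89 CPM in K14-Cre- cells (SD, n = 3 each).

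**Figure D3:**
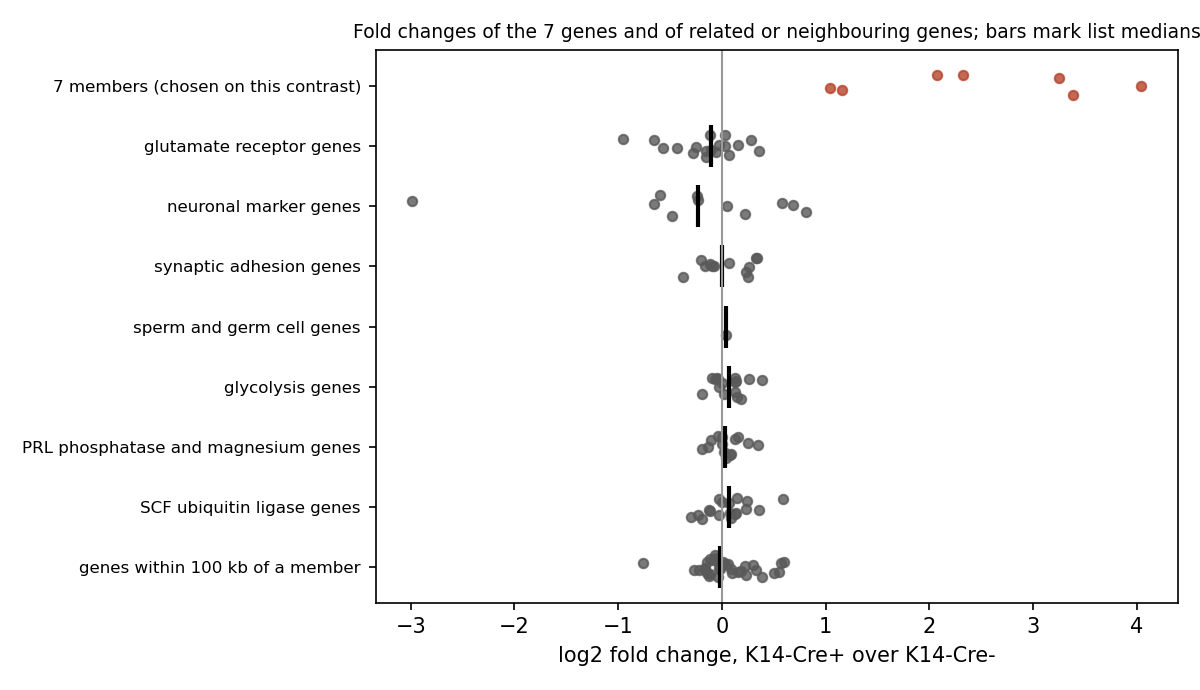
Log2 fold change, K14-Cre+ over K14-Cre-, of the 7 genes (top row), of the tested genes in 7 lists of related genes and of tested genes within 100 kb, one point per gene, with a bar at the median of each list. The 7 genes run from 1.04 to 4.04 because they were chosen on this contrast, and the list medians lie between -0.24 and 0.07.

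The genes around the 7 were examined next, since their position was not used in the choice. Within 100 kb of any of them lay 60 annotated genes, of which 33 were tested and none was called in either direction by edgeR. Of these, 5 had an unadjusted p under 0.05, beside 18.8% of all tested genes, 1 was called higher by DESeq2, and the median log2 fold change was -0.02. Gria3 and Igsf9b had 0 tested neighbours at this distance. edgeR also called none of the 21 tested genes within 50 kb, 3 of them at an unadjusted p under 0.05, and none of the 71 within 250 kb, 13 of them at an unadjusted p under 0.05. DESeq2 called 0 within 50 kb, and 1 higher and 2 lower within 250 kb. Junb, an AP-1 transcription factor gene 81307 bases from Fbxw9, averaged 217 ± 32.4 CPM in K14-Cre+ and 143 ± 5.22 CPM in K14-Cre- cells (SD, n = 3 each), with an edgeR adjusted p of 0.0793. It was the gene that DESeq2 called higher. Rnaseh2a, which encodes the catalytic subunit of RNase H2, lies 90288 bases from Fbxw9 and had a log2 fold change of -0.12 (SE 0.10). Prcp, a peptidase gene that begins 1040 bases from Ddias, had a log2 fold change of 0.30 and an edgeR adjusted p of 0.254.

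Gapdhs lies among genes of the differentiating epidermis. Sbsn, or suprabasin, spans part of it on the opposite strand without sharing an exon base, and had 99250, 77437 and 113533 counts in K14-Cre+ libraries, against 69165, 67846 and 74165 counts in K14-Cre- libraries. Sbsn was highest in K14-Cre+ replicate 3, and its edgeR adjusted p was 0.258. Dmkn, or dermokine, had a log2 fold change of 0.57 (SE 0.24), and Krtdap, the keratinocyte differentiation-associated protein, 0.33 (SE 0.16). The part of their reads in the Gapdhs counts was not tested.

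**Figure D4:**
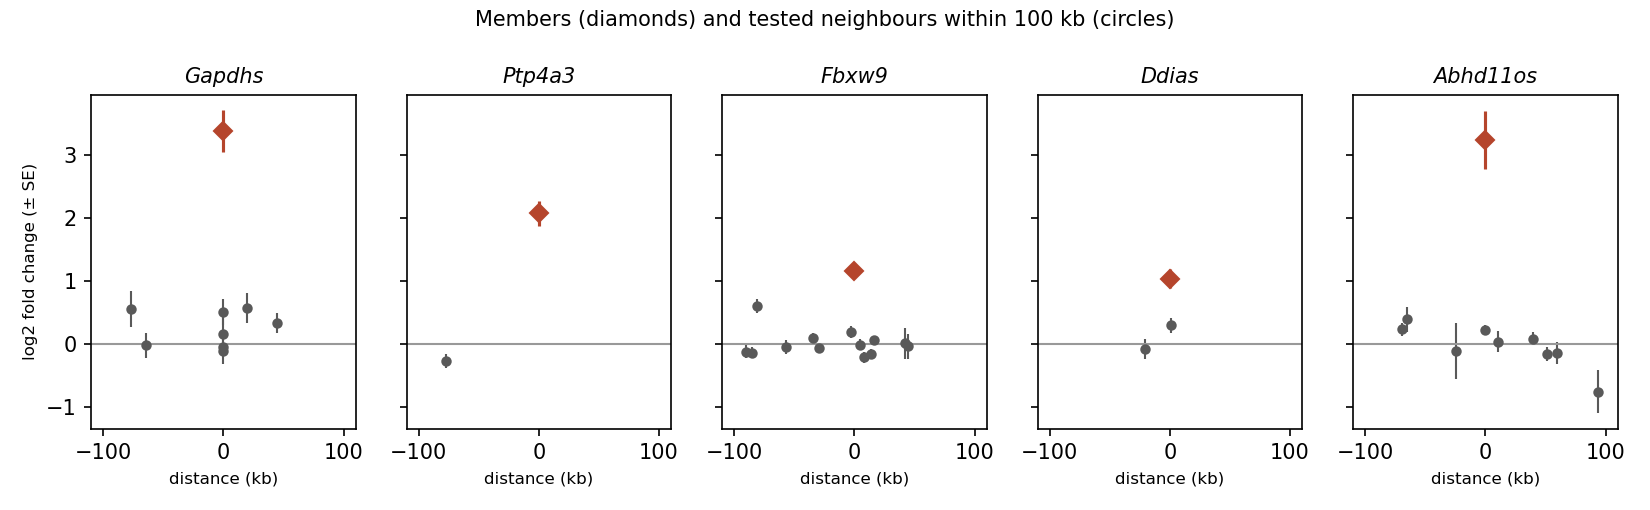
Log2 fold change (± SE), K14-Cre+ over K14-Cre-, against the distance in kb from each gene (diamonds, at 0) to its tested neighbours (circles), for the 5 genes that have any within 100 kb. The diamonds stand at 1.04 to 3.38, above every circle of their panel, and the largest positive neighbours are Junb beside Fbxw9 (0.60) and Dmkn beside Gapdhs (0.57).

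Where exons overlap a gene on the other strand, reads cannot be told apart without a known strand setting. Abhd11os shares 62 bases, 8.84% of its exon length, with Abhd11. Abhd11 had 1145, 828 and 799 counts in K14-Cre+ libraries, against 823, 735 and 806 counts in K14-Cre- libraries, and a log2 fold change of 0.23 with an edgeR adjusted p of 0.193. Gapdhs shares 162 bases, 10.1%, with Tmem147os, which had 153, 97 and 144 counts in K14-Cre+ and 129, 142 and 161 counts in K14-Cre- libraries. Neither Abhd11 nor Tmem147os was called by edgeR. Fbxw9 shares 217 bases, 6.41%, with A230103J11Rik, which had at most 12 counts in a library. Apart from these overlaps, transcripts of other genes shared 0.614% of the 50-base words of Gria3 and none of those of Igsf9b, Ptp4a3 and Ddias.

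The sorted cells were checked against markers of the cell types a skin suspension can hold. No listed marker found in the count table was at 0 in all libraries. Basal keratinocyte markers summed to between 17071 and 19299 CPM in K14-Cre+ and between 17309 and 19640 CPM in K14-Cre- cells, and edgeR called none of the 8, with 2 at an unadjusted p under 0.05, while DESeq2 called 1 higher and 1 lower. Of 9 melanocyte markers, all tested, 6 rose in K14-Cre+ cells (edgeR, adjusted p under 0.05): Dct, Tyrp1, Tyr, Pmel, Mlana and Kit. Their median log2 fold change was 0.97, with all 9 positive, and their summed level ran from 667 to 777 CPM in K14-Cre+ and from 376 to 437 CPM in K14-Cre- cells. Between 0 and 7 of these markers were called when 1 library was left out, none without any one of the K14-Cre- replicates 1, 2 or 3, 2 without K14-Cre+ replicate 1, 1 without replicate 2 and 7 without replicate 3. The part of melanocyte RNA in the levels of the 7 genes was not tested. Merkel cell markers, which include neuronal genes, had no call by edgeR or DESeq2 among 8 tested, 1 unadjusted p under 0.05, a median log2 fold change of 0.39, and a summed level of 34.5 to 54.0 CPM in K14-Cre+ and 30.6 to 39.3 CPM in K14-Cre- cells. Atoh1, the defining transcription factor of Merkel cells, had 26, 18 and 16 counts in K14-Cre+ and 22, 14 and 21 counts in K14-Cre- libraries.

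Schwann cell markers had no edgeR call among 10 tested, 1 unadjusted p under 0.05, 1 gene called higher by DESeq2, a median log2 fold change of 0.18, and a summed level of 87.2 to 118 CPM in K14-Cre+ and 68.5 to 81.9 CPM in K14-Cre- cells. Sox10 was the gene with an unadjusted p under 0.05, at an edgeR adjusted p of 0.0887. It averaged 25.9 ± 5.04 CPM in K14-Cre+ and 15.9 ± 1.05 CPM in K14-Cre- cells (SD, n = 3 each). Which cell type its RNA came from was not tested. Of 7 Langerhans cell markers tested, only H2-Ab1 was called by edgeR (3 by DESeq2), lower in K14-Cre+ cells at a log2 fold change of -2.29, and the list summed to 197 to 216 CPM in K14-Cre+ and 254 to 300 CPM in K14-Cre- cells. Of the 7, 3 had an unadjusted p under 0.05, and the median log2 fold change was -0.22. Epcam made up most of the sum, at 151 CPM in K14-Cre+ and 163 CPM in K14-Cre- cells on average. Cd74 averaged 7.18 and 38.7 CPM, and H2-Eb1 7.28 and 8.49 CPM, in the same order. T cell markers had no edgeR call among 6 tested, 5 unadjusted p under 0.05, 3 genes called lower by DESeq2, a median log2 fold change of -1.08, and a summed level of 18.9 to 29.5 CPM in K14-Cre+ and 29.1 to 33.9 CPM in K14-Cre- cells. Endothelial markers had no call by either tool and no unadjusted p under 0.05 among 6 tested, a median log2 fold change of -0.02, and a summed level of 2.39 to 26.7 CPM in K14-Cre+ and 3.29 to 23.3 CPM in K14-Cre- cells. Fibroblast markers had no call by either tool and no unadjusted p under 0.05 among 7 tested, and a summed level of 177 to 1373 CPM in K14-Cre+ and 197 to 818 CPM in K14-Cre- cells. Col1a1, a fibroblast collagen gene, had 12904, 274 and 441 counts in K14-Cre+ and 425, 885 and 4854 counts in K14-Cre- libraries. The part of these cell types in the levels of the 7 genes was not tested.

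Profiles most like each gene were ranked by Pearson's r of log2 CPM over the 6 libraries, as a description. Gene models, with Gm, Rik or clone-type names or no symbol, were left out of the ranking and its counts. The libraries share the difference between the groups, which sets most of r. For each of the 7, between 236 and 389 of the ranked genes exceeded 0.9. Closest to Gria3 were Robo3, Serpine2 and Adam12, closest to Igsf9b were Kit, Rnf169 and Mlana, and closest to Ptp4a3 were Ccng1, Npy and Dmrtb1. Gapdhs and Fbxw9 were each other's nearest profile, followed by Def6 and Magi3 for Gapdhs and by Map3k7 and Rnf169 for Fbxw9. Nearest to Ddias were Apaf1, Dglucy and Grip1, and nearest to Abhd11os were Cfap54, Slc2a9 and Rev1. The highest r of each gene lay between 0.995 and 0.999.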

How the data were processed

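RNA-seq libraries of CD49f+ epidermal cells were compared, 3 K14-Cre+ with 3 K14-Cre-. The authors deposited raw counts per gene, not normalized, per the file headers; GSNAP, featureCounts and the build mm10 are named in the submitters' processing notes. Their versions, the strand option and the treatment of reads shared between genes are not stated in the sources used here. Of 38924 genes, 37607 were matched to a symbol. Genes were kept by filterByExpr (minimum count 10, leaving 15525), scaled by TMM and tested two-sided by quasi-likelihood with edgeR 4.0.16 (R 4.3.3), with Benjamini-Hochberg adjustment over all tested genes. CPM uses TMM-scaled totals, and RPKM divides it by exon length. Profiles were compared as log2 CPM with a prior count of 2. Alternatives were DESeq2 1.42.0, limma-voom 3.58.1, other scalings and filters, sex as a covariate, and leaving out each library. The fits were tested on simulated counts. The 7 genes and the lists were chosen with earlier results of these data known. Genes named were the 7, close relatives, the most abundant and lowest-p list genes, overlapping neighbours and nearest profiles; further genes taken by this rule are not all named, and Gria4, Sbsn, Dmkn, Krtdap, Rnaseh2a, Prcp and the markers were named for their position or role after their values were seen. Overlaps and shared 50-base words were read from GENCODE M21 and the count table.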

Additional observations from a re-analysis of the deposited data

How the results depend on the processing

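No paired analysis was possible because the labels give the samples no replicate numbers. The numbers used here only follow the listed order of the samples. The sign of the log2 fold change of the 7 genes was fixed by their choice, so only its size is given over the alternatives. Gria3 ran from 3.68 to 4.94, the highest value without K14-Cre- replicate 3, and Igsf9b from 2.17 to 2.53. Gapdhs ran from 3.04 to 3.54, Ptp4a3 from 1.87 to 2.27, Ddias from 0.92 to 1.17 and Abhd11os from 2.85 to 3.55. Fbxw9 ran from 1.05 to 1.22, the lowest under scaling by total counts. The counts of called genes moved far more. Genes called higher numbered 63, against 27 with total count scaling, 559 with DESeq2, 104 with no filter, 34 with sex as a covariate and 0 to 288 when 1 library was left out (20, 7 and 288 without K14-Cre+ replicates 1, 2 and 3, and 0, 0 and 1 without K14-Cre- replicates 1, 2 and 3). Genes called lower numbered 17, against 288 with DESeq2, 38 with no filter, 8 with sex as a covariate and 0 to 134 when 1 library was left out. Other settings stayed nearer: limma-voom called 52 higher and 14 lower, and edgeR with DESeq2 size factors 72 and 17. With a minimum mean of 1 CPM edgeR called 67 higher and 17 lower. The cause of the larger shifts was not tested. Of 212 counts of list genes and neighbours under the alternatives, 205 were 0. Without K14-Cre- replicate 1 or 2 a count of 0 was fixed, since edgeR then called no gene at all. This tally therefore does not measure how stable the lists are. With DESeq2, 1 glutamate receptor gene (Grip1), 1 neuronal marker (Map2) and 1 neighbour (Junb) were called higher and 1 synaptic adhesion gene (Igsf9) lower. When 1 library was left out, the counts higher ran from 0 to 1 for glutamate receptor genes, neuronal markers and neighbours, with Grip1, Map2 and Junb called without K14-Cre+ replicate 3. Calls of melanocyte markers, whose recount was added after seeing the data, ranged from 0 to 8 of 9. Low counts limit the precision of the folds of Abhd11os, Gapdhs and Gria3, whose K14-Cre- counts were 21 or fewer, and of Igsf9b, at 25 or fewer.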
